A study of Mus musculus with 21 samples.

Results

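Oxidative phosphorylation is the last stage of fuel oxidation in mitochondria. Complexes I and II take electrons from NADH and succinate, complexes III and IV pass them on to oxygen, and complex V, the ATP synthase, uses the resulting proton gradient to make ATP. Most subunits are encoded in the nucleus and imported, while a small core is encoded by the mitochondrial genome. In the small intestine, crypt base and absorptive cells are rich in mitochondria, and Myc, a target gene of Wnt signalling, is known to act on many genes of mitochondrial assembly and translation. The genes described here are the nuclear genes whose array symbol begins like a subunit of these complexes (Nduf, Sdh, Uqcr, Cox4 to Cox8 and Atp5). They were chosen by name alone, and numbered 90 of the 34844 genes with a named probe. Of these, 87 were tested. Cox7b2, Cox8b and Cox8c, isoforms of complex IV restricted to testis or muscle, were not well above background on any array. The symbols also take in 4 assembly factors of complex I (Ndufaf1 to Ndufaf4), 5 measured tissue-restricted isoforms and 4 proteins that are named like subunits but are not fixed parts of a complex (Atp5s, Atp5sl, Cox4nb and Cox7a2l). The other 74 are subunits, with 8 in the NADH-oxidising module of complex I, 8 in its quinone-reducing module, 20 in or beside its membrane arm, 4 in complex II, 8 in complex III, 11 in complex IV and 15 in complex V.

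RNA came from organoids of mouse small intestine. These are cultures of epithelium alone, started from crypts in Matrigel with EGF, Noggin and R-spondin 1. All cultures carried a human myc-tagged beta-catenin lacking its N-terminal region (ΔN89) under a tet-O promoter, with the M2-rtTA activator expressed from ROSA26. The line was made in KH2 embryonic stem cells, and chimeras were crossed to C57/BL6-J mice. This mutant beta-catenin, the effector of Wnt signalling, is made while doxycycline is present; no cells without the transgene were included. With doxycycline, vehicle was given to 7 cultures (letters A to G), compound 2 to 3 (A to C), compound 9 to 3 (A to C) and compound 6 to 4 (D to G). The dose was 2 µM and the exposure 24 h for all compounds. In 4 further cultures (D to G) doxycycline was withdrawn for 24 h. All are inhibitors of CDK8 and CDK19, kinases of the Mediator complex, from a series of 3,4,5-trisubstituted pyridines, per the series' own text. The labels do not say whether the letters are separate cultures or animals, so p-values reflect only how far these samples vary among themselves, which may be technical.

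Each array compared its sample (Cy3) with the same reference RNA (Cy5), and a level below is the log2 ratio of sample over reference after normexp and loess. A change is the difference of such levels between a group and the vehicle arrays of its letters, ± SE, so that -0.20 is a level 1.15-fold lower (Atp5b with compound 6). Changes were tested with limma over 21370 genes, and a gene passed at a Benjamini-Hochberg adjusted p under 0.05. Samples of one letter deviated together in all groups, so counts with the letter as a block are given beside the others. Epithelial genes stood high (list medians 5.06 to 5.82) and fibroblast markers low (-6.25 to -5.74) on every array. From 42.6% to 51.9% of spots were well above background in the sample channel, 86 of the 87 tested genes were so on all 21 arrays, and the number of arrays limits the precision. Arrays A to C and D to G were scanned apart, and their levels cannot be told apart from the scan, so they are not compared.

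The vehicle culture of letter F stood apart from the other vehicle cultures of its set. Its cell-cycle genes had a median of -4.14 where the highest array of that group reached -1.73, and its stem cell genes had a median of 0.24 against up to 1.40. Its oxidative phosphorylation genes were low as well, with a median of 0.71 against 1.06 to 1.24 on vehicle arrays D, E and G. Withdrawal F (0.61) and compound 6 F (0.63) were also the lowest of their groups. Counts for withdrawal and compound 6 are therefore given with and without vehicle F.

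**Figure D1:**
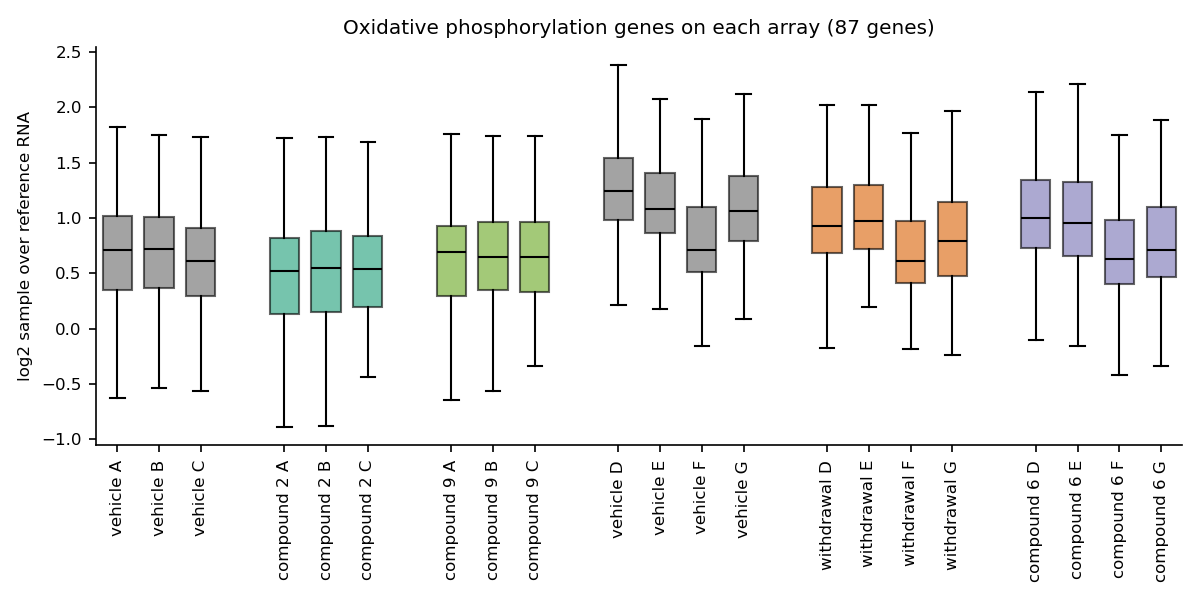
Level of the 87 tested genes on each of the 21 arrays, as log2 sample over reference. Boxes span the middle of the genes with the median as a line, whiskers reach the last gene within 1.5 box lengths, and genes beyond are not drawn. Medians ran from 0.52 to 0.55 with compound 2 against 0.61 to 0.72 for its vehicle arrays, and letter F was lowest in each group of letters D to G.

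The stretch before the start site is shown for a few genes whose behaviour differs in the results. Ndufs3 and Ndufs8 are complex I subunits that passed lower with compound 6 (Ndufs8 with compound 2 as well). Ndufaf4 is an assembly factor that passed lower on withdrawal alone among the comparisons with vehicle. Sdhd is a membrane anchor of complex II that, unlike the other subunits of that complex, did not lie below 0 with compound 6. Each run is the 120 bases before the RefSeq start on the gene's strand (build GRCm38.p6), with matches to the motifs named below in capitals.
Ndufs3, chr2:90904722-90904841, minus strand: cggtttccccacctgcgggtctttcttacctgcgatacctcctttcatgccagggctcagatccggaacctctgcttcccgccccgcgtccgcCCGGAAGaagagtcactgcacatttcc
Ndufs8, chr19:3912775-3912894, minus strand: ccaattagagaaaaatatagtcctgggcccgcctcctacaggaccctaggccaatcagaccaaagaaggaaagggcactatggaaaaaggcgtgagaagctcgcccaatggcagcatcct
Ndufaf4, chr4:24897963-24898082, plus strand: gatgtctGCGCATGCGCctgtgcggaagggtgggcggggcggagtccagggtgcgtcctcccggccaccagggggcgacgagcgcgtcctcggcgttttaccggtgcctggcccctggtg
Sdhd, chr9:50603850-50603969, minus strand: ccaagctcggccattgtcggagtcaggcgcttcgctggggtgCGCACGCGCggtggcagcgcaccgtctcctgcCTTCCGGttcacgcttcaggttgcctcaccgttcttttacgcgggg
The capitals of Ndufs3 are an ETS/GABP match, those of Ndufaf4 a pair of overlapping NRF1 matches, and those of Sdhd an NRF1 and then an ETS/GABP match. Ndufs8 had no match in the stretch shown and an ETS/GABP match 16 bases after the start.

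NRF1 and GABP (an ETS factor) are known activators of nuclear genes for the respiratory chain, as are YY1 and the ERR receptors. Promoters of 300 bases (250 before the start) were in the table used for 71 of the 90 genes, 76 promoters in all, and 6 motifs were searched on both strands. The NRF1 motif GCGCNTGCG was in 25 of the 76 (32.9%) against 6.31% of all 32851 promoters. The ETS/GABP motif CCGGAAG was in 17 (22.4%, against 8.86%), the YY1 motif ATGGCGG in 11 (14.5%, against 4.05%) and the ERR motif AAGGTCA in 8 (10.5%, against 4.72%). The E-box CACGTG, a Myc motif, was in 6 (7.89%, against 7.15%), and the TCF/LEF motif ATCAAAG in 1 (1.32%, against 3.73%). Neighbouring promoters of a gene can share bases. The 24 tested genes with an NRF1 match and the 45 without had median changes of -0.11 and -0.19 with compound 2, and of -0.17 and -0.21 with compound 6. After withdrawal the order was the other way (-0.22 and -0.19), and with compound 9 they had -0.02 and -0.05. A match describes letters and not a bound site.

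With compound 6, many subunit genes were slightly lower. Of the 87 genes, 80 lay below 0, with a median of -0.20 where all genes tested had -0.04. Against a background of 13.4% of all genes lower and 11.4% higher, 12 of the 87 passed lower and 2 higher. The share lower was thus near that of all genes, and the share higher was below it. With the letter as a block 52 passed lower and 4 higher (background 23.8% and 17.4%). Of the 12, 7 were in the matrix-facing modules of complex I, which hold 8 tested genes each, as were 14 of the 52. By letter the median was -0.22 for D, -0.14 for E, -0.08 for F and -0.29 for G. Within slides, which mix letters, it was 0.03 on slide 3 (compound 6 D, vehicles D and F) and -0.24 on slide 4. On slide 5, which holds only compound 6 F and vehicle G, it was -0.38, so letter F enters there on the treated side. With the slide as a block it was -0.20. Without vehicle F, 47 genes passed, all lower (background 20.2%), with a median of -0.27, and without compound 6 F or vehicle D, E or G the count was 7, 7, 5 or 8. The 47 are not given by complex, so the counts by complex below hold for the fit with vehicle F.

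In the NADH module, which takes electrons from NADH, 3 of 8 genes passed lower (7 with the block), with a median of -0.23. Ndufs1, its iron-sulphur subunit, read 1.08, 1.07, 0.75 and 1.11 in vehicles D to G and 0.75, 0.68, 0.48 and 0.63 with compound 6. The groups met only at vehicle F, which equalled the highest treated array, and the change was -0.37 ± 0.09 (adjusted p = 0.00578). Ndufv2, a flavoprotein subunit, changed by -0.31 ± 0.09 (adjusted p = 0.0219), and Ndufv1, which binds NADH, by -0.09 ± 0.10 and did not pass (adjusted p = 0.581). The call of Ndufv2 was lost without compound 6 F or vehicle D, E or G.

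In the quinone module, which hands electrons to ubiquinone, 4 of 8 genes passed lower and 1 higher (7 and 1 with the block). Ndufs3 (probe at chr2:90734793-90734852, mm9) read 1.15, 1.02, 0.72 and 0.94 in vehicles D to G and 0.71, 0.55, 0.47 and 0.49 with compound 6. Every treated array lay below every vehicle array, and the change was -0.40 ± 0.09 (adjusted p = 0.00237). Ndufs7, the subunit with the last iron-sulphur cluster of the chain, read 1.17, 0.97, 0.66 and 0.86 in vehicle and 0.67, 0.59, 0.39 and 0.39 with compound 6, overlapping only through vehicle F and treated D (-0.41 ± 0.10, adjusted p = 0.00462). Ndufs8, a ferredoxin-like subunit, read 0.59, 0.64, 0.58 and 0.69 in vehicle and 0.55, 0.33, 0.16 and 0.53 with compound 6, all below (-0.23 ± 0.08, adjusted p = 0.0336).

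Ndufa6, an accessory subunit of the same module, went the other way. It read 1.46, 1.34, 1.23 and 1.40 in vehicle and 1.73, 1.66, 1.51 and 1.46 with compound 6. Each letter was higher, with overlap through treated G and vehicle D, and the rise was 0.23 ± 0.08 (adjusted p = 0.0307). Its call was lost without compound 6 D or E or vehicle E or F, and the change was 0.09 with median centring. That fit moved the median of all genes below 0, and 19.9% of all passing genes were higher in it, against 45.8% with loess. The call of Ndufs8 was lost without compound 6 E or F or vehicle D, E or G. Ndufs1, Ndufs3, Ndufs7 and Ndufb7 passed whichever of the 21 arrays was left out.

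In the membrane arm of complex I, 2 of 20 genes passed lower (11 with the block; median -0.18). Ndufb2 was at -0.37 ± 0.13 (adjusted p = 0.0494), a call lost in 15 of 21 leave-outs, controls and other treatments included. Ndufab1, the acyl carrier protein of mitochondria, was at -0.10 ± 0.08. Of the assembly factors 1 of 4 passed lower, Ndufaf3 at -0.26 ± 0.07 (adjusted p = 0.0138), while Ndufaf4 was at 0.03 ± 0.11 by its brightest probe and 0.27 by its other probe.

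In complex II, which also belongs to the citric acid cycle, no gene passed without the block, and 3 of 4 lay below 0. Sdha, the flavoprotein, read 1.60, 1.58, 1.41 and 1.64 in vehicle and 1.48, 1.44, 1.16 and 1.40 with compound 6, lower in each letter (-0.19 ± 0.08, adjusted p = 0.0795, and 0.00663 with the block). Sdhb and Sdhc were at -0.21 ± 0.10 and -0.15 ± 0.07, with block p-values of 0.00796 and 0.0303. Sdhd (probe at chr9:50404630-50404689, mm9) read 2.38, 2.36, 2.06 and 2.36 in vehicle and 2.57, 2.45, 2.41 and 2.38 with compound 6, above or level with every vehicle array at 2 decimals (0.16 ± 0.08, adjusted p = 0.147, and 0.0411 with the block). With the block Sdha, Sdhb and Sdhc thus passed lower and Sdhd higher. Of these, only Sdha did so under all 5 scalings described below. For Sdhd it did not hold in the Cy3 channel (0.08) or with median centring (0.04), a fit that moved the median of all genes below 0. Nor did it hold for Sdhd without vehicle F (0.12 with the block, adjusted p = 0.127).

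In complex III 1 of 8 genes passed lower (5 lower and 1 higher with the block). Uqcrc2, a core protein, read 1.81, 1.78, 1.38 and 1.74 in vehicle and 1.53, 1.43, 1.16 and 1.20 with compound 6. The groups overlapped through vehicle F, and the change was -0.35 ± 0.10 (adjusted p = 0.0169), a call lost without compound 6 F or G or vehicle D, E or G. Uqcrc1, its partner core protein, was at 0.14 ± 0.06 (adjusted p = 0.1, and 0.0387 with the block), and Uqcrfs1, the Rieske iron-sulphur protein, at -0.08 ± 0.07.

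None of the 11 genes of complex IV or the 15 of complex V passed without the block, against 6 and 10 lower with it. Their medians were -0.19 and -0.20. Cox5b, a subunit on the matrix side, read 1.20, 1.01, 0.59 and 1.01 in vehicle and 0.89, 0.75, 0.42 and 0.59 with compound 6 (-0.29 ± 0.12, adjusted p = 0.0732, and 6.41e-04 with the block). Cox4i1, the common isoform of subunit 4, was at -0.22 ± 0.12 (adjusted p = 0.208, and 0.0212 with the block), and Cox5a at -0.09 ± 0.12. In the catalytic head of complex V, Atp5a1 was at -0.12 ± 0.12, Atp5b at -0.20 ± 0.12 and Atp5c1 at -0.16 ± 0.09. In its membrane ring, Atp5g1, Atp5g2 and Atp5g3, separate genes for the same ring protein, were at -0.13, -0.29 and -0.24. Probes of 1 gene did not always go together: the other probe of Atp5g1 was at 0.66, and that of Atp5j at 0.12 where its brightest was at -0.29.

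The 5 tissue-restricted isoforms had a median of 0.13, and 1 of them passed. Cox7a1, the heart and muscle isoform, read 4.21, 4.11, 4.03 and 4.31 in vehicle and 4.64, 4.63, 4.16 and 4.50 with compound 6. All but treated F lay above all vehicle arrays (0.32 ± 0.11, adjusted p = 0.0477). That call was lost in 15 of 21 leave-outs, of every group, and the change was 0.12 with median centring, where the median of all genes lay below 0. Its common counterpart Cox7a2 was at -0.19 ± 0.10. Cox4i2 and Cox6a2 were at 0.13 and 0.19, and Cox6b2 at -0.06, as was its common counterpart Cox6b1; none passed. Ndufa4l2, a hypoxia-induced relative of Ndufa4, was not well above background on any array of letters D to G and on only 3 arrays in all, so no change is given for it. The difference between isoforms was not tested. The groups did not overlap for 4 genes below, a smaller share than among all genes (background 10.9%). They also did not for 2 above, for which the share of all genes was not counted.

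**Figure D2:**
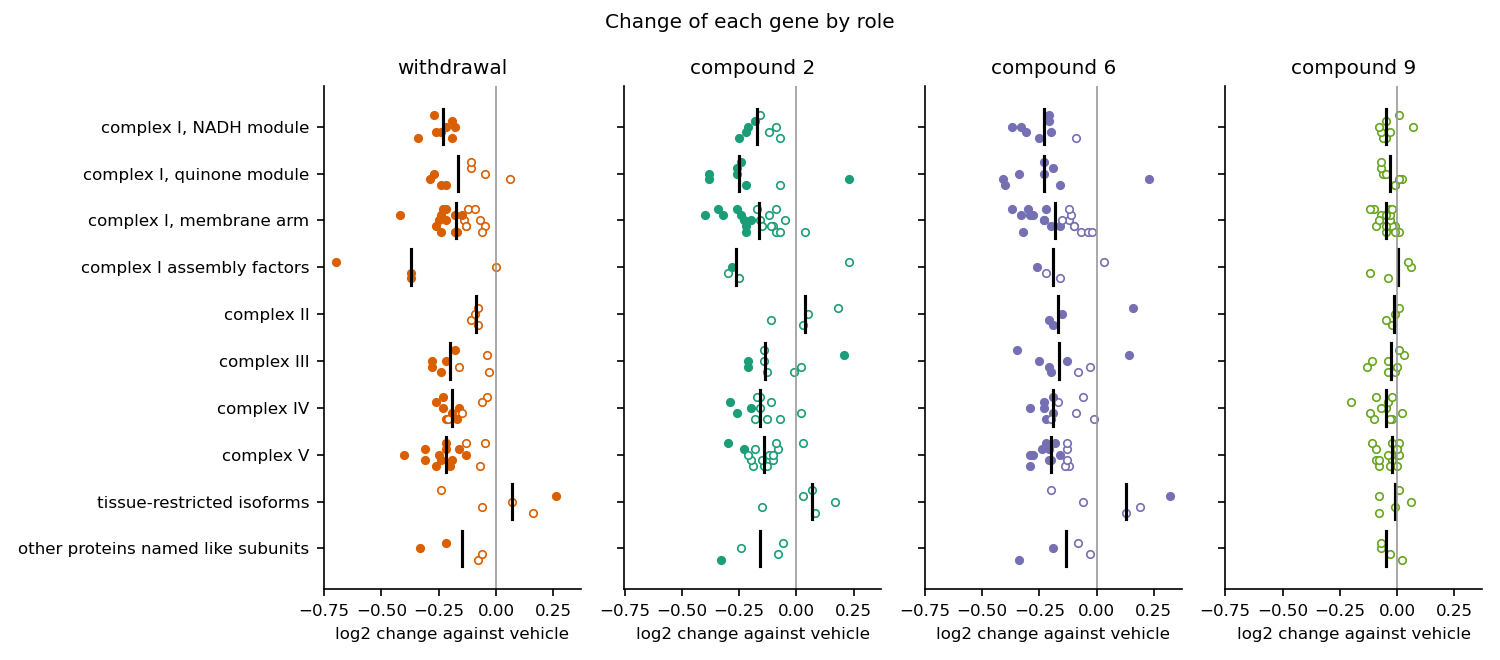
Log2 change of each of the 87 genes against the vehicle arrays of its letters, by role, for withdrawal (4 arrays), compound 2 (3), compound 6 (4) and compound 9 (3). Filled points passed with the letter as a block, open points did not, and black bars are medians. With compounds 2 and 6 most points lie below 0 in both matrix modules of complex I (medians -0.17 and -0.25, and -0.23 and -0.23), and with compound 9 none is filled; the shift after withdrawal is near 0 with 4 other scalings of the values.

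With compound 2 subunit genes were lower as well, although fewer passed. The median was -0.15, with 73 of 87 below 0, where all genes tested had 0.00. Only Ndufs8 passed, lower, against a background of 1.99% lower and 3.31% higher. With the block 28 passed lower and 2 higher (background 7.94% and 9.43%). The groups did not overlap for 43 genes below (background 12.1%) and 5 above, for which the share of all genes was not counted. By letter the median was -0.23 for A, -0.15 for B and -0.06 for C, and within slides -0.20 on slide 1 and -0.06 on slide 2, with -0.15 with the slide as a block.

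Ndufs8 (probe at chr19:3911177-3911236, mm9) read 0.95, 0.97 and 0.98 in vehicles A to C, and 0.61, 0.66 and 0.50 with compound 2. All treated arrays lay below all vehicle arrays (-0.38 ± 0.09, adjusted p = 0.017). The call was lost without compound 2 A or C or vehicle C. The count was 4 without vehicle F and 2 without compound 6 E, F or G or vehicle B or D. Ndufs7 read 0.53, 0.41 and 0.42 in vehicle and 0.03, 0.07 and 0.13 with compound 2, again without overlap (-0.38 ± 0.11, adjusted p = 0.0545, and 0.00124 with the block). Ndufs3 read 0.45, 0.39 and 0.31 in vehicle and 0.11, 0.18 and 0.20 with compound 2, all below, and passed with the block alone (-0.22 ± 0.10, adjusted p = 0.241, and 0.0359 with the block). With the block 6 of the 8 quinone-module genes passed lower, as did 4 of 8 in the NADH module and 9 of 20 in the membrane arm.

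With the block, 2 of 8 genes of complex III passed lower with compound 2, as did 3 of 11 in complex IV, 2 of 15 in complex V and none of the 4 in complex II. These counts moved with the scaling: with Agilent's ratio and the block they were 10 in complex IV and 13 in complex V, and with Cy3 alone 7 and 11. Sdha, Sdhb, Sdhc and Sdhd were at 0.03, -0.11, 0.05 and 0.18. Ndufa6 read 1.63, 1.60 and 1.64 in vehicle and 1.90, 1.73 and 1.95 with compound 2, all above (0.23 ± 0.09, adjusted p = 0.136, and 0.0188 with the block). Uqcrc1 read 1.11, 1.28 and 1.20 in vehicle and 1.32, 1.47 and 1.44 with compound 2, all above as well (0.21 ± 0.07, adjusted p = 0.0901, and 0.0221 with the block). With other scalings Ndufa6 lay between 0.05 and 0.24 and Uqcrc1 between 0.00 and 0.22. In complex IV, Cox7a2 and Cox5b were lower with the block (-0.26 and -0.20, adjusted p = 0.0181 and 0.0407) and Cox4i1 was not (-0.07, adjusted p = 0.61).

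Changes with compounds 2 and 6 were taken against separate vehicle arrays. All arrays were fitted in the same model, however, so the tests of a gene share its estimate of the spread. With the block, 27 of the 28 genes that passed lower with compound 2 were among the 52 of 87 that did so with compound 6. Ndufa6 and Uqcrc1, both genes that passed higher with compound 2, were among the 4 higher with compound 6. By the brightest probe and the loess values, no gene of the 87 differed by more than 1.33-fold with either compound, the value of Ndufs7 with compound 6. Other scalings gave larger differences, such as -0.64 for Ndufs7 and -0.61 for Ndufs8 with compound 2 and -0.52 for Ndufs7 with compound 6.

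The values were also scaled in 4 other ways: Agilent's own ratio, the Cy3 channel alone, the deposited value table, and median centring without loess. For compound 2 the median then lay between -0.35 and -0.18, and 7 to 37 genes passed (43 to 68 with the block). Over all genes 775 to 1921 passed (3302 to 5642 with the block). For compound 6 it lay between -0.32 and -0.14, and 12 to 54 passed (40 to 70 with the block). Over all genes 4736 to 5726 passed with compound 6 (7776 to 9224 with the block). Median centring moved the median of all genes tested to -0.12 and -0.11, and the changes and counts of that fit include this shift. Of all genes that passed, 62.5% were higher with compound 2 and 45.8% with compound 6, against 14.4% and 19.9% with median centring. Genes that passed lower with the block under all 5 scalings numbered 27 with compound 2 (background 5.32%) and 28 with compound 6 (background 15.4%). Both lists share 17 genes. Of the 16 genes of both matrix modules of complex I, 10 were on each list; of complex II it was none with compound 2 and Sdha with compound 6. No gene passed higher under all 5.

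With compound 9 no gene of the 87 passed. The median was -0.04, with 67 of 87 below 0 and changes from -0.20 to 0.07. Nor did any other gene tested pass (background 0%; 0.00468%, or 1 gene, with the block). At an unadjusted p under 0.05 there were 0 of the 87 genes and 251 of all genes (1.17%), and 1 of the 87 with the block. The groups did not overlap for 4 below (background 2.6%) and 1 above, for which the share of all genes was not counted. Letters A, B and C had medians of -0.11, -0.04 and 0.03, slides 1 and 2 had -0.07 and 0.03, and the slide as a block gave -0.04. The 95% intervals of the changes ran, in the middle of the list, from -0.30 to 0.21. A single-gene shift as large as the list medians of compounds 2 and 6 (-0.15 and -0.20) would lie within that range. Larger falls, such as -0.38 for Ndufs8 with compound 2, would not.

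Ndufs8 read 0.92, 0.95 and 0.88 with compound 9, at or just under the lowest vehicle array (-0.05 ± 0.09, not passing). Ndufs7 read 0.49, 0.40 and 0.48, overlapping its vehicle arrays. Ndufs3 read 0.35, 0.37 and 0.40, within the range of vehicle. Sdhd read 1.97, 2.10 and 2.12 where vehicle read 2.04, 2.12 and 1.99. Cox7c, chosen after its values were seen, had the lowest change, at -0.20 ± 0.11.

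Compounds 9 and 2 could be compared directly at the same dose, time and letters. The genes were higher with compound 9, with a median difference of 0.11 and 70 of 87 above 0. Ndufs8 (0.33 ± 0.09, adjusted p = 0.0391) and Ndufaf3 (0.34 ± 0.09, adjusted p = 0.0266) passed higher and none lower, against a background of 1.46% and 3.33%. Both calls were lost without any of compound 2 A, B or C or compound 9 A or B, and that of Ndufs8 also without compound 9 C, withdrawal D or withdrawal G. With the block 11 passed higher and 2 lower, Ndufa6 and Uqcrc1 (background 6.1% and 9.8%). For Ndufs7 the difference was 0.38 (95% interval 0.15 to 0.62, adjusted p = 0.0537, and 0.00121 with the block). The median was 0.16 to 0.29 with the other scalings, and 9 genes were higher with the block under all 5 (background 4.16%), among them Ndufs7, Ndufs8, Ndufa9, Ndufb2 and Atp5o. Genes without a called difference had wide intervals, such as -0.16 to 0.42 for Atp5b and -0.24 to 0.35 for Cox4i1.

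Compound 6 could be compared with the other compounds only through vehicle, making 3 pairs of compounds in all, each adjusted over genes. Against compound 2, the median difference was -0.03 and none passed (background 0.566%), with 1 of the 87 at an unadjusted p under 0.05. With the block Ndufs1 was lower with compound 6 (-0.28, 95% interval without the block -0.56 to 0.01, adjusted p = 0.0459 with the block; background 9.16%). The interval for Ndufs7 was -0.34 to 0.28 and for Ndufs8 -0.10 to 0.39, so that either compound could act more on them. Against compound 9 the median was -0.15 and none passed (background 6.55%; 6 genes at an unadjusted p under 0.05). With the block 10 passed lower and Cox7a1 higher, a smaller share than among all genes (background 21.7%). Ndufs1, Ndufs3, Ndufs7 and Uqcrc2 were lower under all 5 scalings, with differences of -0.43, -0.39, -0.41 and -0.35. As a share of the 87 this was near that of all genes (background 5.29%).

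**Figure D3:**
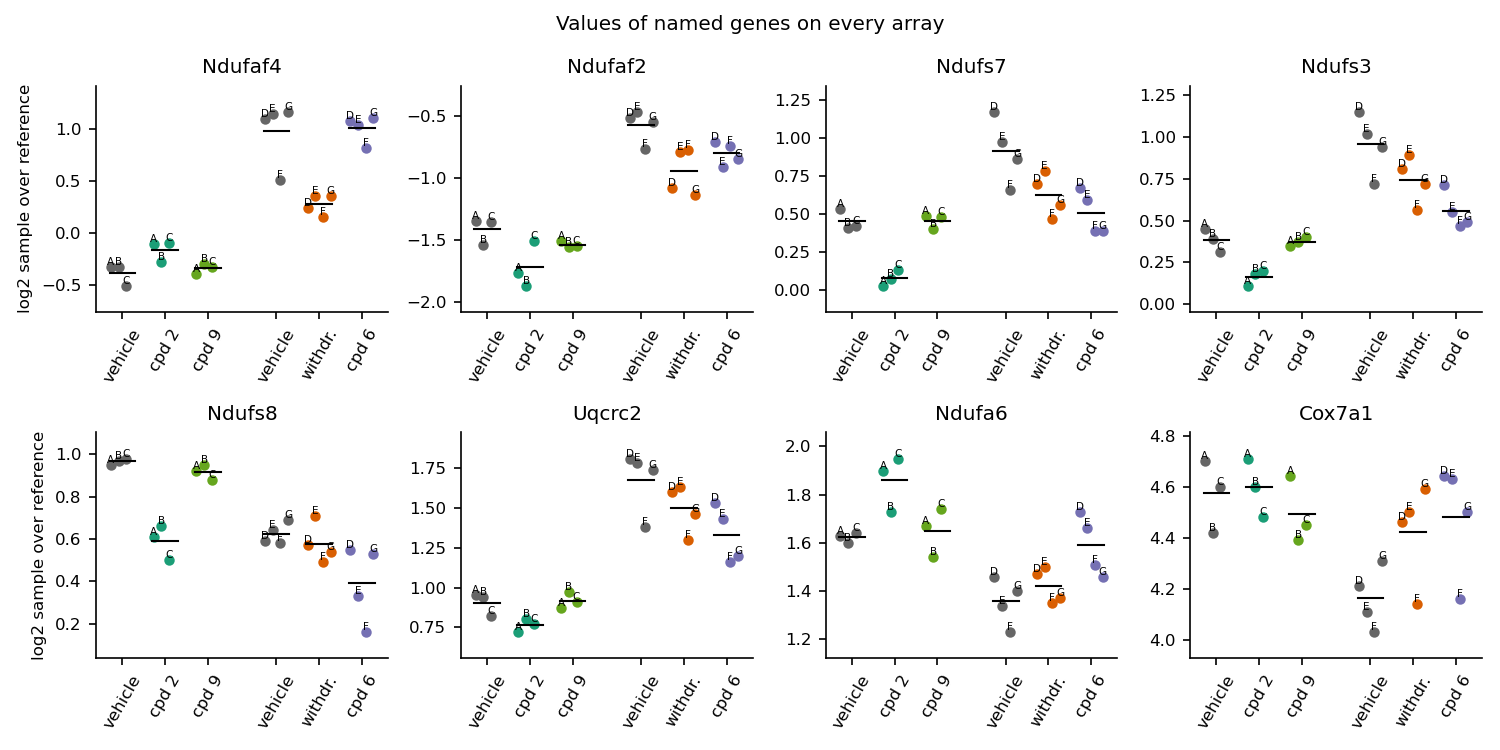
Level of 8 genes on every array, as log2 sample over reference, with letters beside the points and group means as bars; the left 3 columns of each panel are letters A to C and the right 3 letters D to G, whose levels are not compared. Ndufaf4 falls on withdrawal alone, Ndufs7, Ndufs3 and Ndufs8 lie low with compounds 2 and 6, and Ndufa6 lies high with both; the vertical axes differ and do not start at 0.

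When doxycycline was withdrawn, 2 of the 4 assembly factors of complex I fell (3 with the block), and most subunits gave no result that held under other scalings. Of the 87 genes, 4 passed lower and none higher (background 13.3% and 7.28%), a smaller share than among all genes. Of all genes that passed 35.3% were higher, and 47.1% with Agilent's ratio. With the block 53 passed lower and Cox7a1 higher (background 23.8% and 15.4%). The median was -0.19, with 82 of 87 below 0, where all genes had -0.01. With the 4 other scalings, however, the median was -0.06 to 0.02, with 36 to 62 of 87 below 0. With the block these gave 6 lower and 3 higher (Agilent's ratio), 10 and 4 (Cy3 alone), 8 and 5 (the deposited table), and 5 and 0 (median centring). Over all genes 5924 to 8354 passed in these fits. The shift of the subunits after withdrawal was thus seen with the loess values and was near 0 with the 4 other scalings. The cause of this difference between scalings was not tested.

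By letter the median with loess was -0.29 for D, -0.14 for E, -0.09 for F and -0.25 for G. Within slides, which mix letters, it was -0.17 on slide 3 and -0.25 on slide 4, and with the slide as a block -0.23. Without vehicle F 45 genes passed, 44 of them lower (background 21.7% lower), with a median of -0.29, and without withdrawal E or compound 6 F the count was 7 or 8. The groups did not overlap for 3 genes, all below, a smaller share than among all genes (background 8.97%).

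Ndufaf4 (probe at chr4:24829194-24829253, mm9), which helps build the peripheral arm of complex I, read 1.09, 1.14, 0.51 and 1.16 in vehicles D to G and 0.24, 0.35, 0.15 and 0.35 after withdrawal. Vehicle F was the lowest vehicle array and still lay above all withdrawal arrays. The fall was -0.70 ± 0.11 (adjusted p = 6.38e-04), from -0.63 to -0.73 over the other scalings, -0.86 without vehicle F, and -0.45 by its other probe. With compound 6, under which the transgene stayed on, it read 1.07, 1.04, 0.81 and 1.10. Ndufaf2 (probe at chr13:108843015-108843074, mm9), a chaperone of late complex I assembly, read -0.52, -0.47, -0.77 and -0.55 in vehicle and -1.08, -0.79, -0.78 and -1.14 after withdrawal, all below (-0.37 ± 0.10, adjusted p = 0.0111; -0.33 to -0.41 over the other scalings).

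Ndufaf1, named after its values were seen, read 0.21, 0.18, -1.23 and 0.09 in vehicle and -0.32, -0.24, -1.42 and -0.24 after withdrawal. Letter F was low in both groups, each letter was lower, and it passed with the block alone (-0.37 ± 0.30, adjusted p = 0.406, and 7.26e-04 with the block). Ndufaf3, the remaining assembly factor, was at 0.00 ± 0.07. Cox4nb, a subunit of a membrane protein complex of the endoplasmic reticulum that RefSeq names Emc8, read -0.37, -0.34, -0.68 and -0.40 in vehicle and -0.75, -0.77, -0.76 and -0.86 after withdrawal, all below (-0.33 ± 0.08, adjusted p = 0.00535). Ndufaf4, Ndufaf2 and Cox4nb passed whichever array was left out.

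Genes lower with the block under all 5 scalings were Ndufaf1, Ndufaf2, Ndufaf4, Cox4nb and, of the subunits, Ndufc2 alone. This was a smaller share than among all genes (background 14.9%). Ndufc2, in the membrane arm, read 0.96, 0.94, 0.33 and 0.81 in vehicle and 0.52, 0.54, -0.04 and 0.33 after withdrawal (-0.42 ± 0.15, adjusted p = 0.0536, and 2.34e-05 with the block). None of the 38 genes of complexes II to V was on that list. Ndufs7, the remaining gene to pass with loess (-0.29 ± 0.10, adjusted p = 0.0383), was at -0.08 to -0.14 with the other scalings, and its call was lost without withdrawal F or G or vehicle D, E or G. Sdha to Sdhd were at -0.08, -0.11, -0.09 and -0.08 and did not pass. Uqcrc2 was at -0.18 and Cox4i1 at -0.22, and both passed with the block (adjusted p = 0.0224 and 0.0213) with loess values.

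Compound 6 and withdrawal shared letters and were compared directly. Ndufaf4 was higher with compound 6 by 0.73 ± 0.11 (adjusted p = 2.80e-04), as it was with its other probe (0.72) and in all leave-outs. Sdhd was also higher (0.24 ± 0.08, adjusted p = 0.0453), a call lost in 14 of 21 leave-outs, of every group, with a value of -0.03 under median centring. In that fit 17.4% of all passing genes were higher, against 48.6% with loess. Ndufaf3 was lower with compound 6 (-0.27 ± 0.07, adjusted p = 0.0195), a call lost without compound 6 D or E or withdrawal D or F. The background was 7.31% higher and 7.73% lower. The median was 0.00 with loess and -0.24 to -0.13 with the other scalings. With loess and the block 8 passed higher and 8 lower, smaller shares than among all genes (background 19.4% and 14.7%). With the other scalings and the block it was 1 to 3 higher and 40 to 46 lower. Over all genes 5577 to 7049 passed there, 25.4% to 50.5% of them higher. Lower under all 5 were 7 genes, a smaller share than among all genes (background 11%), among them Ndufs1, Ndufs3 and Uqcrc2. Only Ndufaf4 was higher under all. By letter the median was 0.05, 0.00, 0.01 and -0.06 for D to G, on slides 3 and 4 it was 0.17 and 0.00, and with the slide as a block 0.04.

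**Figure D4:**
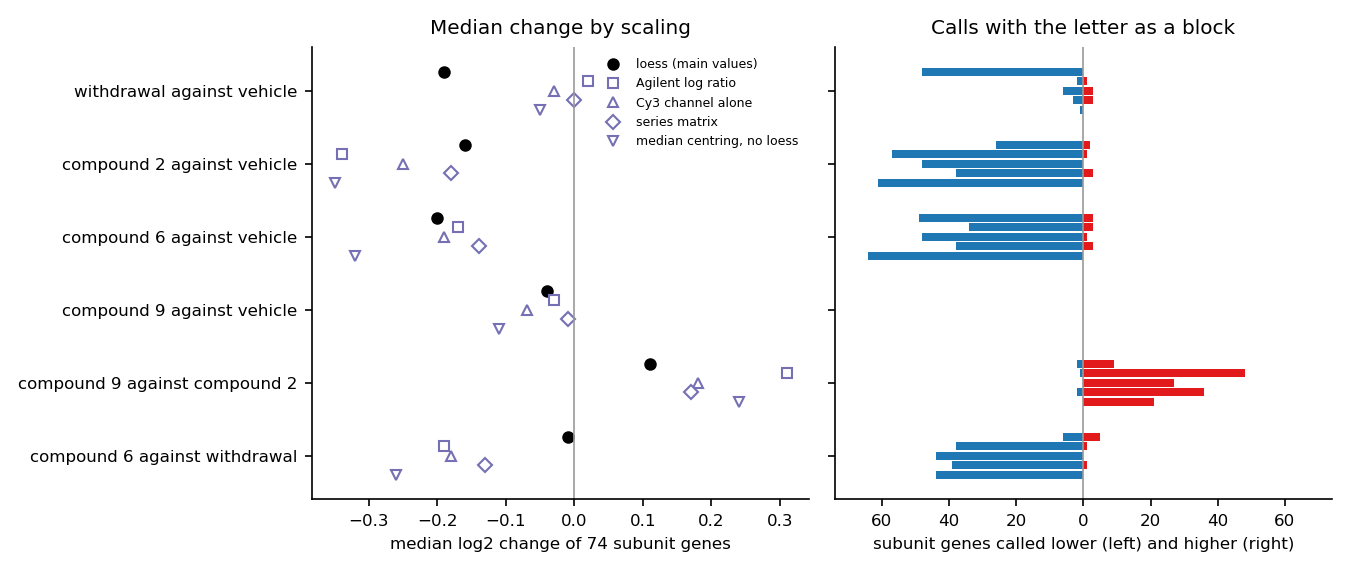
Left, median log2 change of the 74 subunit genes in 6 comparisons under the main loess values (filled) and 4 other scalings (open); right, number of these genes that passed lower or higher with the letter as a block, with bars in the same order from top to bottom. Medians stay below 0 for compounds 2 and 6 under all 5 scalings, whereas for withdrawal they go from -0.19 with loess to between -0.05 and 0.02 with the others.

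Other mitochondrial genes were taken from lists of the same kind. As background for all counts below, 13.3% of all genes passed lower and 7.28% higher after withdrawal (23.8% and 15.4% with the block). With compound 6 it was 13.4% and 11.4% (23.8% and 17.4%), and with compound 2 1.99% and 3.31% (7.94% and 9.43%). Without vehicle F, 21.7% passed lower after withdrawal and 20.2% with compound 6. In bulk RNA, fewer cells of a type and less RNA per cell cannot be told apart, and other cell markers moved with these groups. After withdrawal, 10 of 11 stem cell genes (10 with the block, 10 without vehicle F) and 11 of 15 cell-cycle genes (14 and 15) passed lower and 5 of 17 enterocyte genes (6 and 6) higher. With compound 6, 9 of 11 stem cell (9 with the block, 10 without vehicle F) and 5 of 15 cell-cycle genes (12 and 14) passed lower, with 1 cell-cycle gene higher in each fit. Also with compound 6, 3 of 17 enterocyte (7 with the block, 6 without vehicle F), 7 of 12 enteroendocrine, 4 of 8 goblet, 4 of 7 fibroblast and 5 of 7 leukocyte genes passed higher, with list medians on its arrays of -6.10 to -5.74 for fibroblasts and -1.39 to -1.30 for leukocytes. With compound 2, 3 stem cell genes passed lower and 1 higher (6 and 2 with the block). Higher with compound 2 were 2 cell-cycle, 2 epithelial, 1 goblet, 1 fibroblast and 1 endothelial gene, and with the block also 4 enterocyte and 3 enteroendocrine genes. Their part in the changes of the oxidative phosphorylation genes was not tested.

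The 25 genes of the mitochondrial ribosome, which translates the subunits encoded in mitochondria, were mostly lower after withdrawal. Of these, 19 passed lower (median -0.36), and 11 to 16 did under the other scalings (median -0.36 to -0.27). Mrps27 was at -0.77 ± 0.18 (adjusted p = 0.00528), Mrpl19 at -0.64 ± 0.12 (adjusted p = 0.00173) and Mrpl3 at -0.61 ± 0.14 (adjusted p = 0.00622). With compound 6, 6 passed lower (median -0.21) and with compound 2 only Mrps7 did (-0.37 ± 0.10, adjusted p = 0.0344). With the block it was 22 for withdrawal, 12 for compound 6, and 8 lower and 1 higher for compound 2. Without vehicle F it was 22 for withdrawal and 16 for compound 6.

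Of 27 carriers and import genes, 13 passed lower after withdrawal, 6 with compound 6 and none with compound 2. With the block 18 passed lower and 2 higher after withdrawal, 14 lower and 2 higher with compound 6, and 3 lower with compound 2. Without vehicle F it was 17 lower after withdrawal, and 14 lower and 1 higher with compound 6. Hspd1, the mitochondrial chaperonin, was at -1.21 ± 0.31 after withdrawal (adjusted p = 0.0107) and Timm8a1, an import chaperone, at -0.98 ± 0.16 (adjusted p = 6.97e-04). Tomm5, of the outer membrane pore, also passed lower (adjusted p = 0.00308). Slc25a4, the ADP/ATP carrier, passed lower with compound 6 (-0.46 ± 0.10, adjusted p = 0.00302). Of 25 further assembly genes, 6 passed lower after withdrawal, 7 lower and 1 higher with compound 6 and 1 lower with compound 2. With the block these were 15 lower after withdrawal, 12 lower and 2 higher with compound 6, and 7 lower and 1 higher with compound 2. Without vehicle F they were 12 lower after withdrawal, and 10 lower and 1 higher with compound 6. Nubpl, which delivers iron-sulphur clusters to complex I, was at -0.74 ± 0.18 after withdrawal (adjusted p = 0.00869) and -0.68 ± 0.18 with compound 6 (adjusted p = 0.0113). Sdhaf1 and Bcs1l, for complexes II and III, were at -0.50 each after withdrawal, Ttc19 at -0.60 with compound 6 and Atpaf2, for complex V, at -0.41 with compound 2.

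Of 21 regulators, 8 passed lower and 2 higher after withdrawal (9 and 3 with the block, 11 and 3 without vehicle F). With compound 6 it was 2 and 2 (5 and 3 with the block, 7 and 3 without vehicle F), and with compound 2 it was 2 and 1 (4 and 3 with the block). The 2 and 2 with compound 6 were smaller shares than among all genes (background 13.4% and 11.4%). Myc read -0.90, -0.72, -2.12 and -0.97 in vehicles D to G and -3.25, -3.14, -3.28 and -3.37 after withdrawal. It fell by 2.08 ± 0.22 on the log2 scale (-2.08, adjusted p = 1.53e-05). With compound 6 it read -1.29, -1.29, -1.57 and -1.04, a change of -0.12 that did not pass (adjusted p = 0.73), where without vehicle F it was -0.44 and passed (adjusted p = 0.0175). Ssbp1, which binds mitochondrial DNA, was lower after withdrawal (-0.55 ± 0.12) and with compound 6 (-0.36 ± 0.12). Ppargc1b, a coactivator of mitochondrial genes, passed higher with both compounds. It read 1.98, 1.89, 2.25 and 2.09 in vehicles D to G and 2.44, 2.48, 2.57 and 2.60 with compound 6 (0.47 ± 0.08, adjusted p = 3.00e-04), and 1.66, 1.84 and 1.82 in vehicles A to C and 2.17, 2.25 and 2.13 with compound 2 (0.41 ± 0.09, adjusted p = 0.0106). No group overlapped. Under the other scalings it lay between 0.26 and 0.43 with compound 2, where 1 of 4 scalings passed. Ppargc1a passed higher with compound 6 (0.53 ± 0.15, adjusted p = 0.0137). Yy1 and Polg2 were lower with compound 2 (-0.33 ± 0.08 and -0.36 ± 0.08, adjusted p = 0.0195 and 0.0157).

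None of the 13 measured genes of the mitochondrial genome passed lower with a compound. With compound 2 all 13 lay above 0, with a median of 0.57 (0.37 to 0.61 with other scalings). ND6 alone passed (0.57 ± 0.16, adjusted p = 0.0394), and 8 passed higher with the block (1 to 5 under the other scalings). The list medians of vehicles A to C ranged from -0.06 to 0.79 and those of compound 2 from 0.62 to 0.92, so the groups overlapped. With compound 6 the median was 0.07 and none passed, and with compound 9 it was 0.25 and none passed. After withdrawal ND3, a complex I subunit, read 1.32, 1.29, 0.90 and 1.09 where vehicles D to G read 2.05, 2.02, 1.77 and 2.10. All withdrawal arrays lay below all vehicle arrays (-0.84 ± 0.13, adjusted p = 5.38e-04; -0.69 to -0.57 with the other scalings). ATP6 passed with loess alone (-0.45 ± 0.15, adjusted p = 0.0386). With the block 4 of the 13 passed lower after withdrawal.

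Of 18 genes of the citric acid cycle and pyruvate oxidation, 2 passed lower after withdrawal, 1 higher with compound 2, and 1 in each direction with compound 6. For withdrawal and compound 6 these were smaller shares than among all genes (background 13.3% lower, and 13.4% lower and 11.4% higher). With the block it was 5 lower and 2 higher after withdrawal, 3 and 2 with compound 2, and 4 and 1 with compound 6. Without vehicle F it was 5 lower and 2 higher after withdrawal, and 3 and 1 with compound 6. Idh3a was at -0.63 ± 0.14 after withdrawal, and Ogdh at 0.33 ± 0.09 with compound 2 and 0.39 ± 0.08 with compound 6. Of 20 genes of fatty acid oxidation, 5 passed lower and 1 higher with compound 6, with Acadl at -0.47 ± 0.14, Acads at -0.46 ± 0.12 and Hadhb at -0.41 ± 0.13, none passed with compound 2, and 1 passed in each direction after withdrawal. With the block it was 9 lower and 3 higher with compound 6, 5 and 2 with compound 2, and 3 and 3 after withdrawal. Without vehicle F it was 7 lower and 3 higher with compound 6, and 2 and 1 after withdrawal. Of the kinases and phosphatases of pyruvate dehydrogenase, Pdk3 was higher with compound 6 (0.55 ± 0.17, a call lost without vehicle F at an adjusted p of 0.0566) and Pdp1 lower after withdrawal (-0.23 ± 0.08). Of 10 uncoupling and redox genes, 3 passed higher and 2 lower with compound 6 (3 and 5 with the block, 3 and 4 without vehicle F), 1 passed in each direction after withdrawal (2 higher and 5 lower with the block, 3 and 5 without vehicle F) and none with compound 2 (4 lower with the block). With compound 6, Nnt, a proton-driven source of mitochondrial NADPH, was at -0.97 ± 0.34 (adjusted p = 0.0408) and Txnrd2 at -0.59 ± 0.13 (adjusted p = 0.0032).

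**Figure D5:**
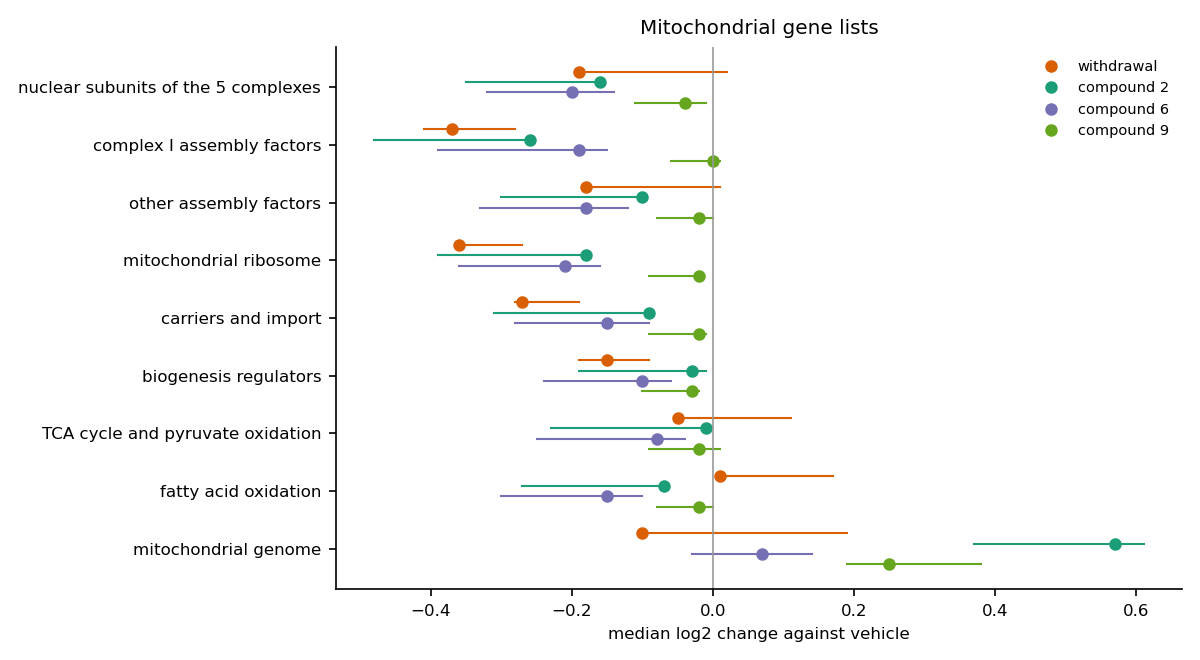
Median log2 change against vehicle of 9 lists of mitochondrial genes; points are the main loess values and lines span the 5 scalings. After withdrawal the mitochondrial ribosome (-0.36) and the complex I assembly factors (-0.37) stay below 0 under all scalings while the nuclear subunits reach 0.02, and with compound 2 the genes of the mitochondrial genome lie at 0.57 where the nuclear subunits lie at -0.16.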

How the data were processed

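RNA of 21 organoid samples was hybridised to 2-colour Agilent arrays, with the sample in Cy3, Universal Mouse Reference RNA in Cy5 and no dye swaps, per the labels. The deposited scanner files give the spot intensity and background of both channels, made with Agilent Feature Extraction 10.7.3.1 on mm9 coordinates per the file headers. They also hold a log10 ratio of reference over sample, which Feature Extraction had background-subtracted and dye-normalised per the file headers; its sign was turned here. The deposited series matrix holds log2 values; how the authors made them is not stated in these sources. Its direction (sample over reference) and scale were found by comparison with Agilent's ratio (correlations 0.92 to 0.95), its column medians were 0.00 to 0.10, and its centring stays unknown.

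Each array had 62976 spots; 3671 controls were left out, 157 non-uniform spots over all arrays were set missing, and none was saturated. In R 4.3.3 with limma 3.58.1, intensities were corrected with normexp (offset 50), normalised by loess within arrays, and averaged over the spots of a probe. A probe entered if its Cy3 signal was well above background on 3 or more arrays, and the brightest probe stood for each gene, leaving 21370 genes. A model with a term for each of 5 groups and for the set of letters (A to C, D to G, the same as the scan) was fitted to all arrays, with moderated two-sided tests and Benjamini-Hochberg adjustment over all genes (0.05). Of 90 genes, 30 had several probes (134 in all) and 87 matched RefSeq by accession. The procedure was tested on simulated data.

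The letters come from the sample titles. Deviations from group means correlated at 0.21 to 0.749 for all 21 same-letter pairs of arrays, with a median of -0.18 for other letters, so the letter was also fitted as a block. Slides (5) were fitted as a block and examined one by one. Promoter sequences and gene matches are from RefSeq (GRCm38.p6), and motifs were searched with Python 3.11.15; figures were drawn with matplotlib 3.10.9.

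Alternatives were the scalings, filters, terms, probe choice, slides and left-out arrays. The letter as a block together with another scaling or without letter F was added after seeing the data. The genes named are a set panel of subunits, up to 5 highest and 5 lowest passing genes in a comparison, and up to 3 passing genes of each further list. Others are said to be chosen after their values were seen, or were named because they passed lower or higher under the block or under all scalings. The genes, lists and comparisons were chosen with earlier results of these data known.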

Additional observations from a re-analysis of the deposited data

Results flagged for a closer look

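Among 168 groups of 4 arrays, 8 held a value far from the other 3, and chance marks about 1 in 20 groups. In the vehicle group of letters D to G, letter F accounted for 6 of them. Its complex I assembly factors had a median level of -0.13 against 0.45 to 0.54 on the other arrays, and its NADH-module genes 0.71 against 1.13 to 1.16. Its level was 0.51 for Ndufaf4 (others 1.09 to 1.16), 0.75 for Ndufs1 (1.07 to 1.11), 2.06 for Sdhd (2.36 to 2.38) and 1.38 for Uqcrc2 (1.74 to 1.81). The remaining pair also had letter F: Ndufab1 with compound 6 was at 2.38 (others 2.52 to 2.55), and Sdha after withdrawal was at 1.33 (others 1.53).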

How the results depend on the processing

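Depth limits are those of 3 or 4 arrays a group, with median half-widths of the 95% intervals of 0.21 to 0.32, so single-gene shifts of the size seen here were near the limit. The cause of the shifts between settings was not tested.

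Over all genes, Agilent's ratio, Cy3 alone, the deposited table and median centring called 775, 1137, 876 and 1921 with compound 2. For compound 6 these were 4790, 4951, 4736 and 5726, and for compound 9 against 2 they were 715, 912, 787 and 718. Compound 6 against withdrawal had 3073, 3437, 3074 and 2941. Compound 6 against 9 had 1116 with Cy3 alone and 992 with the deposited table. Counts below are of the 87 genes that passed and medians are log2 changes. With Agilent's ratio, withdrawal had a median of 0.02, compound 2 had 7 genes and -0.32, compound 9 against 2 had 5 and 0.29, compound 6 against withdrawal 11 and -0.18, and compound 6 against 2 had 0.15. With the Cy3 channel alone, compound 2 had 18 and -0.25, compound 6 had 33, compound 9 against 2 had 9 and 0.17, compound 6 against withdrawal 25, and compound 6 against 9 had 1. With the deposited value table these were 14 for compound 2, 27 for compound 6, 7 and 0.16 for compound 9 against 2, 24 for compound 6 against withdrawal and 4 for compound 6 against 9. With median centring they were 37 and -0.35 for compound 2, 54 for compound 6, a median of -0.11 for compound 9, 4 and 0.24 for compound 9 against 2, and 29 and -0.24 for compound 6 against withdrawal, where Sdhd turned to -0.03. Of all genes that passed for compound 9 against 2, 30.5% were higher, against 64.9% with median centring, and for compound 6 against withdrawal 48.6% against 17.4%.

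With the letter as a replicate block, 54 passed after withdrawal, 30 with compound 2, 56 with compound 6, 13 for compound 9 against 2, 16 for compound 6 against withdrawal, 1 for compound 6 against 2 and 11 for compound 6 against 9. In that order for the first 5 comparisons, the block gave 9, 60, 40, 51 and 42 with Agilent's ratio, 14, 54, 54, 29 and 47 with Cy3 alone, 13, 43, 44, 40 and 44 with the deposited table, and 54, 35, 58, 16 and 11 without letter F. With the block and median centring it gave 68 for compound 2, 70 for compound 6, 25 for compound 9 against 2 and 47 for compound 6 against withdrawal. Over all genes, that fit called 5642, 9224, 3354 and 5577. For the first 5 comparisons the block called 8067, 3547, 7981, 3550 and 6473 of all genes with Agilent's ratio. It called 8354, 3903, 8593, 3308 and 7049 with Cy3 alone, and 8172, 3302, 7776, 3189 and 6550 with the deposited table. Without letter F it called 8957, 4523, 9252, 4201 and 6767.

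With no filter on dim probes, or with the slide as a block, 1 gene passed for compound 9 against 2, and with probes well above background on all 21 arrays 2 passed for compound 2. With no term for the set, which then enters the differences, 0 passed after withdrawal, 30 with compound 2 (median -0.34), 6 with compound 6, 0 for compound 9 against 2, 1 for compound 6 against withdrawal, 36 for compound 6 against 2 (0.33) and 19 for compound 6 against 9 (0.21), with a median of -0.25 for compound 9. In the same order 2106, 3624, 4612, 224, 1136, 9092 and 8941 of all genes passed. Fitted on their own arrays alone, 2 passed after withdrawal, 3 with compound 2, 3 with compound 6 and 1 for compound 9 against 2. These fits called 2071, 650, 3074 and 546 of all genes. Without every letter F array the counts were 30, 10 and 35 for withdrawal, compound 2 and compound 6, 5 for compound 9 against 2, 1 for compound 6 against withdrawal and 5 for compound 6 against 9. Those over all genes were 6831, 2303, 6497, 2074, 3758 and 3458. Within slides the median was -0.20 and -0.06 for compound 2 (slides 1 and 2), 0.03 for compound 6 (slide 3) and 0.03 for compound 9 (slide 2).

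Leaving out 1 array at a time gave 3 to 45 genes and medians of -0.29 to -0.12 after withdrawal, 0 to 4 and -0.19 to -0.13 with compound 2, 5 to 47 and -0.27 to -0.12 with compound 6, 0 and -0.06 to -0.01 with compound 9, 0 to 3 and 0.09 to 0.12 for compound 9 against 2, 1 to 4 and -0.07 to 0.07 for compound 6 against withdrawal, 0 and -0.13 to 0.03 for compound 6 against 2, and 0 to 4 and -0.23 to -0.09 for compound 6 against 9. The highest counts for withdrawal (45) and compound 6 (47) were those without vehicle F. Over single genes and settings, 9138 values kept direction and side of the threshold, 276 came to pass, 176 no longer passed and 1 turned, as given above.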
